A study of Orbicella faveolata with 18 samples.

Results

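The embryos described here were those of the Caribbean reef coral Montastraea faveolata that were kept at 31.5°C, sampled 12 and 48 hours after fertilisation. The comparison of the later with the earlier embryos rests on 6 of the 18 cDNA microarrays of the study, 3 for each time point, and on 1217 of the 1218 clones with deposited values. A clone is 1 spotted cDNA. It entered when no more than 1 array per time point lacked its value, and only clone CAOO387 did not.

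Within its first days a coral embryo passes from cleavage to a hollow blastula, gastrulates, and becomes a ciliated larva, the planula. The earliest divisions run largely on RNA and protein that the mother laid down in the egg. Maternal transcripts are then cleared and the embryo's own genes take over, while rapid divisions slow down and the first differentiated cells, among them nerve cells and ciliated cells, appear. Embryos of this species carry no algal symbionts at these stages, so the RNA measured does not include that of symbionts.

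Gametes came from multiple colonies, were fertilised together at a temperature between 29.0 and 31.5°C, and the embryos were moved shortly afterwards to seawater held at 27.5, 29.0 or 31.5°C. Embryos of each temperature were raised in 3 containers of their own. At each time point embryos from these 3 containers were pooled into 1 RNA isolation, which was hybridised on 3 arrays. The embryos' RNA carried the dye Cy5 and a common reference pool of embryo RNA carried Cy3, so a log2 ratio above 0 is a higher signal in the embryos than in the pool. Both groups described here share the parents, the fertilisation, the containers and the 31.5°C treatment, and differ in the hours since fertilisation. They differ equally in the hours spent at 31.5°C, so age and length of exposure cannot be told apart here. The titles and the temperature and age labels of the 6 arrays agree, but 1 line of their descriptions names the 27.5°C group after 12 hours on all of them. The titles were followed.

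Because the 3 arrays of a time point measured the same RNA, their spread holds hybridisation error and not the spread between cultures or spawnings, and no p-value can be given for the change at 31.5°C. A clone was called higher or lower at 48 hours when the 95% intervals of its 2 mean log2 ratios did not overlap, with 1 spread per clone estimated over all 18 arrays. The smallest difference that meets this criterion is given below as the limit. The limit had a median of 0.50 over all clones. Whole embryos were measured, so fewer cells of a type and less RNA per cell cannot be told apart.

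Of the 12-hour arrays, replicate 1 stood apart from the others. Across clones its log2 ratios correlated at 0.547 with replicate 2 and 0.569 with replicate 3, which correlated at 0.894 with each other, and it lacked values for 15 clones. The 48-hour arrays correlated at 0.917 to 0.933 with each other, and the 2 time points correlated at -0.21 to -0.05. The median technical SD was 0.184 for the 12-hour arrays and 0.0836 for the 48-hour arrays. Between 2917 and 3365 of 4320 spots were usable in both channels on these 6 arrays. Spots exceeded their background by a median of 4.45-fold to 8.83-fold in Cy3 and 5.02-fold to 12.95-fold in Cy5.

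Between 12 and 48 hours at 31.5°C, 414 of 1217 clones (34.0%) met the interval criterion, 244 higher (20%) and 170 lower (14%) at 48 hours. Without replicate 1 of 12 hours the count was 410, with 221 higher and 189 lower, and 358 clones were called in the same direction both times, 86.5% of the calls with that array and 87.3% of those without it. The arrays of the 2 time points did not overlap for any of the 414, and this was frequent on the whole: it held for 691 of the 1202 clones on all 6 arrays (57.5%), 390 with 48 hours above (32.4%) and 301 below (25%). Changes were mostly moderate: the median size was 0.35 on the log2 scale over all clones and 0.77 over the called clones. By size alone, 150 clones (12.3%) changed more than 2-fold with arrays that did not overlap, 71 of them higher (5.83%) and 79 lower (6.49%). Large rises outnumbered large falls, with 23 called clones more than 4-fold higher and 8 more than 4-fold lower. More than 16-fold higher were 4 clones, and the largest fall was 10.6-fold.

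Peroxidasin (AOSF997), a secreted haem peroxidase that cross-links the extracellular matrix in animals, showed the largest rise of any annotated clone. Its log2 ratios were -0.86, -0.73 and -0.75 on the 12-hour arrays and 3.88, 3.47 and 3.63 on the 48-hour arrays. The 2 sets of arrays lay far apart, with the signal below the pool at 12 hours and far above it at 48 hours. The rise was 4.44 on the log2 scale, or 21.7-fold, against a limit of 0.69.

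The universal stress protein clone (AOSF1521), of a family first described in bacteria under starvation and stress, ranked next. It gave -2.13, -2.11 and -1.95 at 12 hours and 1.03, 1.12 and 0.98 at 48 hours, a rise of 3.11 (8.62-fold, limit 0.25). Catalase (AOSF550), which breaks down hydrogen peroxide, gave -1.44, -1.38 and -0.88 at 12 hours and 1.32, 1.34 and 1.38 at 48 hours. Its rise was 2.58 (5.97-fold, limit 0.50), and replicate 3 was the highest of its 12-hour arrays. Soma ferritin (CAON1101), an iron-storage protein, was the most even of these clones, at -1.42, -1.45 and -1.44 and then 0.73, 0.72 and 0.73. It rose by 2.17 (4.49-fold, limit 0.29).

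The other annotated clones among the 12 largest rises lay between 0.95 and 1.44 on the log2 scale. They were a CCHC zinc finger clone (AOSF1405, 1.44), an Orf2-encoded protein of a retroelement (AOSF824, 1.31), ribosomal protein L7A (CAON914, 1.27), the lectin tachylectin-2 (AOSF387, 1.17), malate dehydrogenase (AOSF1222, 1.05), the gamma subunit of the Sec61 channel for secreted proteins (AOSF1278, 1.00), the lysosomal protease cathepsin B (AOSF1172, 0.97) and an adenosine receptor A1 homologue (AOSF1361, 0.95). For all 8 of these clones the lowest 48-hour array lay above the highest 12-hour array, which their selection required. The gap was smallest for the adenosine receptor clone, whose 12-hour arrays read 0.04, -0.42 and -0.32 and whose 48-hour arrays read 0.68, 0.67 and 0.79.

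The 3 largest rises among clones without a descriptive annotation lay above or just below that of peroxidasin (4.44). AOSF1134 read -4.96, -4.99 and -4.97 at 12 hours and 0.41, 0.48 and 0.49 at 48 hours, the largest rise of all clones at 5.43 (43.2-fold, limit 0.71). AOSF1532, listed as a hypothetical protein of Aspergillus nidulans, rose by 4.52 (22.9-fold) and CAON604 by 4.23 (18.8-fold). The origin of these clones was not tested. Spot intensities could not be matched to clones, so whether the 12-hour signals of these clones lay near background could not be checked. All 3 were far below the pool at 12 hours, near or above it at 48 hours, and the spread between their arrays was small against the change.

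**Figure D1:**
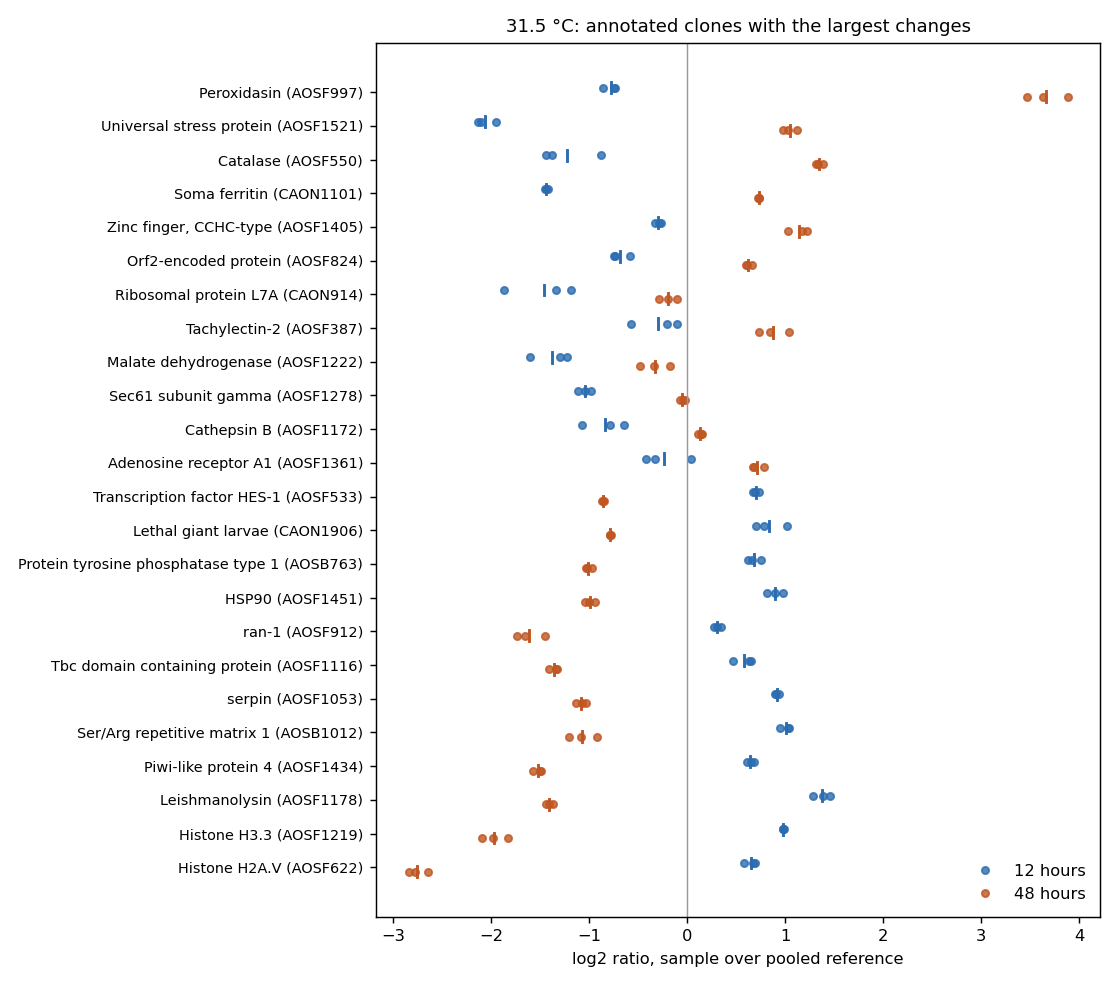
Log2 ratio of embryo RNA over the pooled reference on each array at 31.5°C, for the annotated clones with the 12 largest rises (top) and the 12 largest falls (bottom) from 12 to 48 hours. Each point is 1 array and bars are means over the 3 arrays of a time point. Only clones whose 2 time points do not overlap were eligible, and those shown run from peroxidasin (4.44) to histone H2A.V (-3.40).

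The largest fall of all clones was that of histone H2A.V (AOSF622), a replication-independent histone variant related to H2A.Z that is abundant in early embryos of other animals. It read 0.58, 0.69 and 0.67 at 12 hours and -2.77, -2.84 and -2.64 at 48 hours. The change was -3.40, a 10.6-fold lower level, against a limit of 0.35. Histone H3.3 (AOSF1219), the variant of histone H3 that is deposited outside of DNA replication, followed. Its arrays read 0.99, 0.98 and 0.98 at 12 hours and -2.10, -1.98 and -1.83 at 48 hours, a change of -2.95 (7.72-fold, limit 0.25). Both variants were above the pool on every 12-hour array and far below it on every 48-hour array.

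A leishmanolysin family clone (AOSF1178), a zinc metalloprotease, read 1.29, 1.38 and 1.46 at 12 hours and -1.41, -1.37 and -1.44 at 48 hours, and fell by 2.79 on the log2 scale (6.90-fold). Piwi-like protein 4 (AOSF1434), of the family that silences transposons in the germ line, fell from 0.61, 0.68 and 0.65 to -1.50, -1.58 and -1.49. Its change was -2.17 (4.49-fold, limit 0.34). The RNA-processing factor Serine arginine repetitive matrix 1 (AOSB1012) read 1.02, 1.04 and 0.95 at 12 hours and -1.08, -0.92 and -1.20 at 48 hours, a change of -2.07 (limit 0.32). These 3 clones were above the pool on every 12-hour array and below it on every 48-hour array.

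The remaining annotated clones completed the 12 largest falls. They were a serpin-type protease inhibitor (AOSF1053, 3.99-fold lower, from 0.89, 0.91 and 0.94 to -1.14, -1.07 and -1.03), and, with their changes on the log2 scale, a Tbc domain protein of the kind that switches off Rab GTPases in membrane traffic (AOSF1116, -1.94), the GTPase ran-1, which drives nuclear transport and spindle assembly (AOSF912, -1.92), the chaperone HSP90 (AOSF1451, -1.89), a type 1 protein tyrosine phosphatase (AOSB763, -1.69), the cell polarity protein lethal giant larvae (CAON1906, -1.62) and the Notch target HES-1 (AOSF533, -1.56). Of these, HSP90 had the widest limit, 0.68, and its arrays at 31.5°C still lay close together, at 0.98, 0.82 and 0.89 and then -1.04, -1.01 and -0.94. Without a descriptive annotation, CAON395 (-2.82), AOSF1233 (-2.70) and CAON1047 (-2.27) fell the most. For CAON1047 the 12-hour arrays read 0.39, 1.13 and 1.09, so replicate 1 was the lowest, and its 48-hour arrays read -1.23, -1.43 and -1.54.

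Annotated clones were grouped by function into 19 lists. The annotations come from the study's list of 538 clones that it called different between temperatures on these same arrays, so the lists are not an independent sample of the array. Of the clones on that list and 2 more that the article names, 243 had a descriptive annotation, and 59 of these were called higher and 58 lower. The counts and medians below stand beside those over all clones, of which 20% were called higher and 14% lower with a median change of 0.04.

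**Figure D2:**
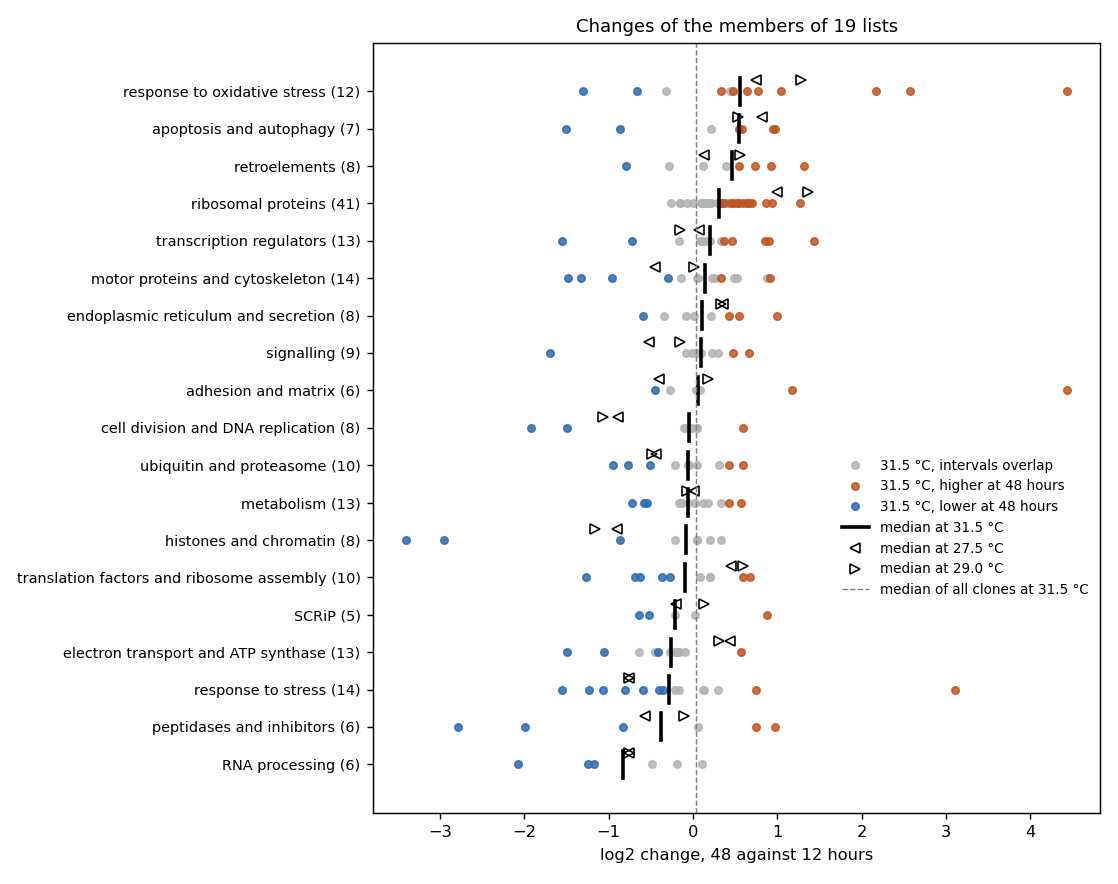
Change from 12 to 48 hours at 31.5°C of each member of the 19 lists, with the number of members in brackets. Points are clones coloured by call, thick bars are list medians at 31.5°C, open triangles are the medians of the same lists at 27.5 and 29.0°C, and the dashed line is the median of all clones at 31.5°C (0.04); list medians run from -0.83 for RNA processing to 0.56 for response to oxidative stress.

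Of 12 clones for the response to oxidative stress, 8 rose, 2 fell and 2 were not called, with a median change of 0.56. Besides peroxidasin, catalase, soma ferritin and malate dehydrogenase, a cytochrome p450 clone (CAON1879) rose by 0.47, from a mean of -0.07 ± 0.02 to 0.40 ± 0.02 (SD, n = 3 arrays each). The falls were those of a 2Fe-2S ferredoxin site clone (AOSC403, -1.31) and of a peroxisomal enoyl-CoA isomerase (AOSC790, -0.67), named after its value was seen. Without any 1 of the 6 arrays, 7 or 8 of the list were called higher.

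Response to stress clones went mainly the other way: 7 of 14 fell, 2 rose and 5 were not called, with a median of -0.29. The falls included HES-1, sequestosome-1 (AOSF1075, -1.23), an adaptor that delivers ubiquitinated cargo to autophagy, and the Negative affector of Salt Tolerance homologue (AOSB875, -1.07). A senescence-associated protein clone (CAOO703) fell by 0.60, while a second clone of that name (CAOO2479) changed by 0.14 and was not called. The rises were the universal stress protein and Recombination repair protein 1 (AOSB392), a DNA repair endonuclease that went from 0.00 ± 0.27 to 0.75 ± 0.15. The call of AOSB392 was lost without replicate 2 of either time point, so that 1 of 14 then rose. Heat shock transcription factor 1 (CAON1605) changed by -0.17 and a further heat shock protein clone (CAOO2018) by -0.69, neither beyond its limit (0.40 and 0.72). NST1 (AOSB460, -0.36) barely passed its limit of 0.34, and its call was lost in 7 of 12 alternatives, among them 5 of the 6 without 1 array.

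Ribosomal protein clones formed the largest list, with 41 members. Of these, 13 rose, none fell and 28 were not called, with a median change of 0.31 and a range of -0.26 to 1.27. Without 1 of the 6 arrays, 9 to 14 were called higher. Ribosomal protein L7A led the list, at -1.86, -1.33 and -1.19 and then -0.20, -0.10 and -0.29, so that its 12-hour replicate 1 was the lowest. Ribosomal protein L18 of the large subunit (AOSC1063) rose by 0.94, L15 (CAOO1045) by 0.87 and S14 of the small subunit (AOSF1155) by 0.70, the last of these not called with a spread from the 6 arrays at 31.5°C only. L15 was spotted as 3 clones, which gave 0.87, 0.53 and 0.09, the last of them not called.

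Among 10 clones for translation factors and ribosome assembly, 2 rose and 5 fell, and the list median was -0.10. Without 12-hour replicate 1, 1 rose. Aminoacyl-tRNA synthetase class I (AOSF1161) fell by 1.26, from 1.11 ± 0.10 to -0.16 ± 0.12, and an elongation factor 1-alpha clone (AOSC1120) by 0.68. Clones annotated alike did not always move alike. AOSF546 and AOSF569, both annotated as nucleolar GTP-binding protein, changed by -0.62 and 0.68, each beyond its limit, but AOSF569 was no longer called with the arrays scaled to the same spread. The 4 elongation factor 1-alpha clones (AOSC1120, CAOO902, AOSF1463 and AOSF1493) changed by -0.68, -0.27, 0.08 and 0.20, of which the first pair was called lower. Whether such clones hold the same gene cannot be told from their names.

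For electron transport and ATP synthase, 1 of 13 clones rose and 3 fell, with a median of -0.26. The hinge protein of ubiquinol-cytochrome c reductase, a subunit of respiratory complex III (CAOO440), changed by -1.49, with 12-hour arrays at 0.83, 0.15 and 0.27 and 48-hour arrays at -1.10, -1.09 and -1.04. NADH-ubiquinone oxidoreductase 7, of complex I (CAON943), fell by 1.06, and the lipid-binding subunit of ATP synthase (AOSC391) by 0.41. The call of AOSC391 rested on a change barely past its limit of 0.39 and was lost without each of 5 of the 6 arrays. A second clone of the same annotation (CAON1556) changed by -0.18, within its limit of 0.85. A cytochrome b clone (AOSF1328) was the member that rose, by 0.57, a call lost with a spread from the 6 arrays at 31.5°C only. The other cytochrome b clone (AOSF631) changed by -0.09 and was not called. The mitochondrial ATP synthase f chain (AOSC720, -0.26), cytochrome b5 (CAON1668, -0.19) and cytochrome c oxidase subunit 1 (AOSB747, -0.63) stayed within their limits of 0.30, 0.30 and 0.86.

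RNA processing had the lowest list median, -0.83, and 3 of its 6 clones fell with none higher. They were the matrix protein above, the branch site protein p14 of the spliceosome (AOSF1016, -1.25) and NHP2-like protein 1 (AOSF1077, -1.18), a component of spliceosomal and nucleolar particles. P14 fell from 0.59 ± 0.12 to -0.66 ± 0.03 and NHP2-like protein 1 from -0.03 ± 0.10 to -1.21 ± 0.05. For both, all 48-hour arrays lay below all 12-hour arrays, as for 25% of the clones on all 6 arrays.

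In the list of histones and chromatin, 3 of 8 clones fell and none rose, with a median of -0.08. Besides both histone variants, the linker histone H1.0 (AOSB632) fell by 0.86, from 0.74, 0.85 and 0.78 to 0.00, -0.07 and -0.14. The chromatin remodeller Chromodomain-helicase-7 (AOSB771) changed by 0.33 (limit 0.49). UHRF1 (AOSB949), which binds newly replicated DNA to maintain its methylation, changed by 0.05 (limit 0.44).

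Of 8 clones for cell division and DNA replication, 2 fell and 1 was called higher, and the median change was -0.05. Ran-1 fell, as did Disks large-associated protein 5 (AOSB1116), a spindle protein, which went from 1.02 ± 0.20 to -0.47 ± 0.02. The ubiquitin-conjugating enzyme E2 S (AOSB1028), which completes the tagging of mitotic proteins for destruction, was called higher with a change of 0.59 against a limit of 0.58, and this call was lost without any 1 of the 6 arrays. The chromosomal passenger protein INCENP (AOSB594, -0.01), DNA polymerase epsilon subunit 3 (AOSB437, -0.09) and the acidic coiled-coil protein (CAON1474, -0.10) lay at the same level at both time points within their limits of 0.49, 0.57 and 0.43. INCENP read -0.11, 0.12 and 0.19 at 12 hours and 0.10, 0.07 and -0.01 at 48 hours, so its arrays overlapped.

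Other clones that mark a stage or a cell type were few. Major yolk protein (AOSF642) rose by 0.87, from -0.32, -0.44 and -0.31 to 0.34, 0.65 and 0.55. The precursor of the LWamide neuropeptides (CAON1226), signals of cnidarian nerve cells that trigger metamorphosis in some species, rose by 0.66, from -0.29, -0.12 and -0.11 to 0.55, 0.37 and 0.55. A GFP-like protein clone (AOSF1131) changed by -0.28 and was not called. The 48-hour arrays of the yolk and neuropeptide clones lay all above the 12-hour arrays. That held for 32.4% of the clones on all 6 arrays. At 27.5 and 29.0°C the yolk clone rose by 1.65 and 1.23. The neuropeptide clone changed by 0.47 and 0.23 there, the last not called.

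Apoptosis and autophagy clones were called in 6 of 7 cases, 4 higher and 2 lower, with a median of 0.54. Cathepsin B and the adenosine receptor clone rose as described, autophagy-related protein 16 (CAOO2671), needed to build the autophagosome, by 0.58 and the calcium-binding chaperone calreticulin (AOSC448) by 0.54, a call lost with the arrays scaled to the same spread. Methionine sulfoxide reductase (AOSC865), which repairs oxidised methionine, changed by -1.51, from 0.48, 0.63 and 0.65 to -0.96, -0.82 and -0.97. The proapoptotic caspase adaptor clone (AOSF761) fell by 0.87.

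Regulators of transcription were called in 7 of 13 cases, 5 higher and 2 lower (median 0.21). The rises were led by the CCHC zinc finger clone, followed by the nuclear receptor homologue NHR-6 (AOSB596), at 0.02, -0.06 and 0.10 and then 0.87, 0.95 and 0.93. A C2H2 zinc finger clone (AOSC580) rose by 0.85. The count of rises was 3 without 12-hour replicate 1 and 3 without 48-hour replicate 3. Activating transcription factor 5 (CAON612) changed by 0.09 and was not called.

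Among 8 retroelement clones 4 rose and 1 fell, with a median of 0.47. The Orf2 clone was followed by a reverse transcriptase (AOSF1088, 0.92) and a Pol-like clone (AOSF929, 0.74), whereas another reverse transcriptase (AOSF584) fell by 0.80, with 12-hour arrays at 0.80, 0.19 and 0.93. This fall was not called with a spread from the 6 arrays at 31.5°C only. Without 12-hour replicate 3 the falls were 2. Clones of the SCRiP family, small cysteine-rich proteins of corals, also divided: SCRiP1 (AOSF1109) rose by 0.87, SCRiP5 (AOSF1140) fell by 0.64, SCRiP8 (AOSF810) fell by 0.53, and the other two were not called.

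Motor and cytoskeleton clones split into 2 that rose and 4 that fell of 14, with a median of 0.14. The falls were led by a pair of dynein light chains, Tctex-type 1 (AOSF634, -1.49) and roadblock-type 2 (AOSF651, -1.32), parts of the motor that moves cargo and cilia along microtubules. Spectrin beta chain (AOSC625), of the membrane skeleton, fell by 0.96. Severin (AOSF1307), which cuts actin filaments, rose by 0.92. Of 6 peptidase and inhibitor clones, 2 rose and 3 fell (median -0.38). Leishmanolysin, the serpin and the astacin-type protease nas-13 (CAON980, -0.82) fell, and cathepsin B led the rises.

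The remaining lists held smaller changes. Endoplasmic reticulum and secretion had 3 rises and 1 fall among 8 clones, with Sec61 gamma and the translocon-associated protein beta (AOSF1300, 0.43) higher and Sec61 alpha (CAOO526, -0.59) lower, and without 12-hour replicate 1 the falls were 2. Signalling had 2 rises and 1 fall, that of the phosphatase AOSB763, among 9, and 1 of the rises, a rhodopsin-like receptor (AOSF1236, 0.48 against a limit of 0.47), was lost without any 1 array. Adhesion and matrix had 2 rises, peroxidasin and tachylectin-2, and 1 fall, DGCR2 (AOSB564, -0.45), among 6. Metabolism had 2 rises and 3 falls among 13. Glyoxylate reductase (AOSB445) rose by 0.57, and the RNA 3'-terminal phosphate cyclase (CAON781, -0.72), Ribonuclease 3 (AOSC1008, -0.58) and isocitrate lyase (CAON1675, -0.55) fell, the call of AOSC1008 being lost without 12-hour replicate 1. Ubiquitin and proteasome had 2 rises and 3 falls among 10, the largest fall being that of the proteasome subunit rpn1 (AOSC1104, -0.95). The counts of that list rested on single arrays. Its falls were 1 without 12-hour replicate 2 or 3 or 48-hour replicate 1 or 3. Its rises were 0 without 12-hour replicate 1 or 48-hour replicate 2 or 3, and 1 without 12-hour replicate 2 or 48-hour replicate 1.

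Clone identifiers carry prefixes, whose meaning was not used here beyond the name. Of 77 clones with the prefix AOSB, 7 rose and 21 fell (median -0.19), and of 137 with AOSC, 23 rose and 32 fell (median -0.04). Among 561 AOSF clones 151 rose and 75 fell (median 0.09), among 321 CAON clones 46 rose and 28 fell (median 0.06), and among 120 CAOO clones 17 rose and 13 fell (median -0.02). The only AOKF clone fell.

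The same interval was measured on separate arrays at 27.5 and 29.0°C, which share no array with the comparison at 31.5°C. Each temperature had its own containers, so effects of temperature and of containers cannot be told apart. At 27.5°C, 500 of 1101 clones (45.4%) were called between 12 and 48 hours, 271 higher (24.6%) and 229 lower (20.8%). At 29.0°C the count was 570 of 1214 (47.0%), 304 higher (25%) and 266 lower (21.9%). Over the 1099 clones measured at all 3 temperatures, the median size of the change was 0.36 for embryos kept at 31.5°C, below the 0.49 of those at 27.5°C and the 0.52 of those at 29.0°C. Across these clones the change at 31.5°C correlated at 0.717 with that at 27.5°C and 0.763 with that at 29.0°C, and the changes at 27.5 and 29.0°C correlated at 0.898. Without 12-hour replicate 1 at 31.5°C, the first pair of correlations became 0.731 and 0.787. These correlations are descriptions over clones on shared arrays. At 27.5°C after 12 hours, replicates 1 and 2 carry another operator code in the file headers than all other arrays, and the 3 arrays of that condition had 1616 to 2067 usable spots, fewer than any array at 31.5°C. The part of this in the differences from 27.5°C was not tested.

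Most clones called at 31.5°C were called in the same direction at the lower temperatures. Of the clones that rose at 31.5°C, 68.3% also rose at 27.5°C (155 of 227 with values there) and 77.0% at 29.0°C (188 of 244). Of those that fell, 71.9% also fell at 27.5°C (120 of 167) and 71.8% at 29.0°C (122 of 170). In the other direction, 57.2% of the rises and 52.4% of the falls at 27.5°C were also called at 31.5°C, and 61.8% and 45.9% of those at 29.0°C. At all 3 temperatures 141 clones rose and 107 fell. Opposite calls were rare, at 13 clones between 31.5 and 27.5°C and 10 between 31.5 and 29.0°C.

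**Figure D3:**
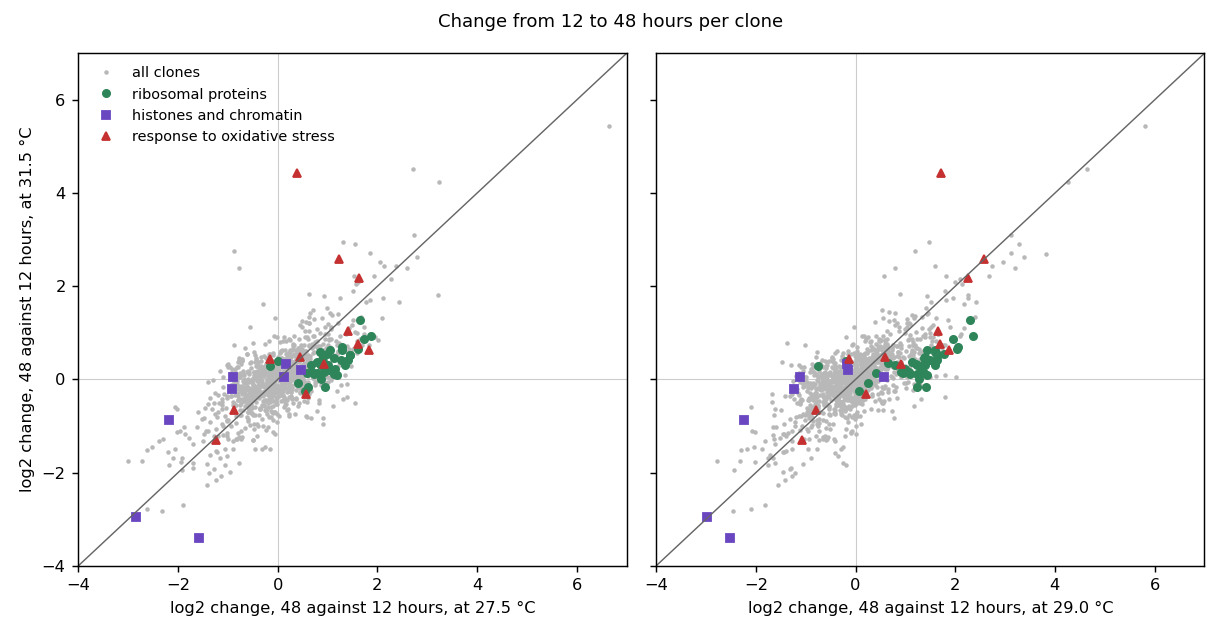
Log2 change from 12 to 48 hours of each clone at 31.5°C (vertical) against the change of that clone at 27.5°C (left) and 29.0°C (right). The line marks equal changes; most ribosomal protein clones lie to the right of it with smaller rises at 31.5°C (median 0.31 against 1.00 and 1.37), and peroxidasin lies far above it (4.44 against 0.39 and 1.72).

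With RNA samples as units, a change common to the 3 temperatures could be tested in limma over the 6 RNA samples, 1 for each temperature and time point. With temperature as a covariate, 417 of 1099 clones (37.9%) passed an adjusted p of 0.05, 228 higher (20.7%) and 189 lower (17.2%) at 48 hours. This test includes the samples at 31.5°C and does not address that temperature alone. With 1 RNA sample per temperature and time point, the residual error of the test is the difference in change between temperatures. No replicate cultures enter that error, so the p-values of the test do not take the spread between cultures into account. Among the clones named above, histone H3.3 (adjusted p = 7.56e-06 in limma, mean changes -2.95, -2.85 and -2.98 at 31.5, 27.5 and 29.0°C) changed by amounts that did not differ beyond the limit of 0.35. The universal stress protein (adjusted p = 7.56e-06 in limma, rises of 3.11, 2.73 and 3.12) rose by 0.38 more at 31.5 than at 27.5°C, just past its limit of 0.35, and was within that limit of the rise at 29.0°C. Peroxidasin passed with an adjusted p of 0.0159 in limma, although its rises were unequal.

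The change at 31.5°C was called different from the change at another temperature when the 95% intervals of both changes did not overlap. Against 27.5°C this held for 235 of 1101 clones (21.3%), 101 with the change at 31.5°C above (9.17%) and 134 below (12.2%). With all arrays scaled to the same spread, 269 clones differed, 143 above and 126 below, so the larger side turned. Against 29.0°C it held for 240 of 1214 (19.8%), 100 above (8.24%) and 140 below (11.5%). Different from both, in the same direction, were 51 clones above (4.64% of 1099) and 86 below (7.83%). Since the study's list was chosen for differences between temperatures on these arrays, annotated clones were bound to be frequent among them. Of the 51, 49 are on that list, and of the 86, 85. Of the 231 clones with a descriptive annotation and values at all temperatures, 19 were above both and 51 below both. The counts of the functional lists below are to be read beside these.

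Peroxidasin had the largest difference. Its 12-hour means in the order 31.5, 27.5 and 29.0°C were -0.78, -0.46 and -0.65, within the limit of 0.69, and its 48-hour means were 3.66, -0.07 and 1.07. The rise of 4.44 at 31.5°C exceeded that at 27.5°C by 4.05 and that at 29.0°C by 2.72, both against a limit of 0.98. Catalase and soma ferritin rose by 2.57 and 2.26 at 29.0°C, which did not differ from the 2.58 and 2.17 at 31.5°C beyond the limits of 0.71 and 0.41. At 27.5°C their rises were smaller, 1.23 and 1.63. The oxidative stress list as a whole did not rise more at 31.5°C. At each temperature 8 of its 12 clones rose and 2 fell. Its median changes were 0.56, 0.74 and 1.29 at 31.5, 27.5 and 29.0°C. The change at 31.5°C was above both others for 1 of the 12 clones and below both for 3.

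Ribosomal protein clones rose much less at 31.5°C. At 27.5°C 37 of the 40 measured rose with a median change of 1.00, and at 29.0°C 37 of 41 rose and 1 fell with a median of 1.37, against 13 of 41 and 0.31 at 31.5°C. The change at 31.5°C was below both others for 20 of the 40 clones measured at all temperatures and above both for none. The median log2 ratio of the list went from -0.63 to -0.31 at 31.5°C. In embryos at 27.5°C it went from -0.65 to 0.35, and at 29.0°C from -1.22 to 0.12. Its start was therefore near that of 27.5°C and above that of 29.0°C, and its end was below both. L18 rose by 0.94 at 31.5°C and by 1.87 and 2.35 at 27.5 and 29.0°C, and S14 by 0.70, 1.28 and 2.05.

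**Figure D4:**
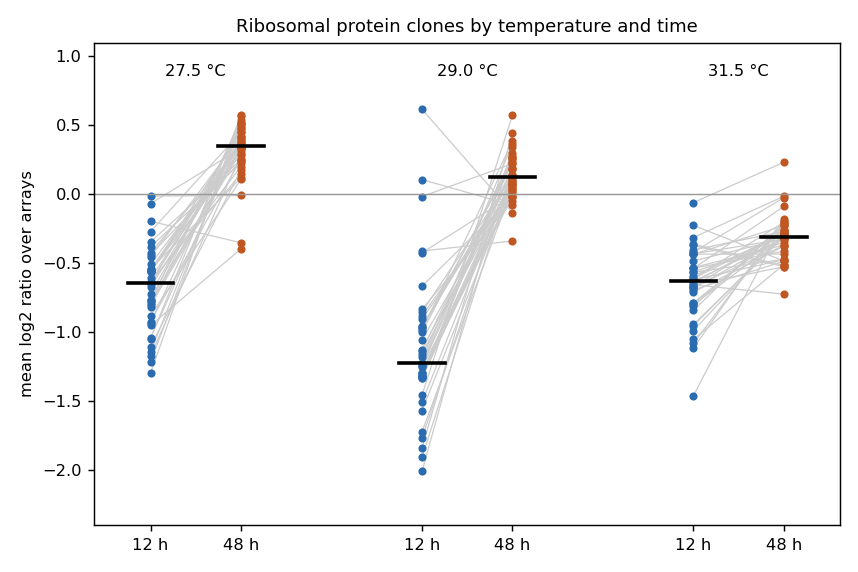
Mean log2 ratio over the arrays of the 41 ribosomal protein clones (40 at 27.5°C) at 12 and 48 hours and each temperature. Points are clones, grey lines join the same clone and bars are medians, which go from -0.63 to -0.31 at 31.5°C and end at 0.35 and 0.12 at 27.5 and 29.0°C.

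Translation factors and mitochondrial clones followed the same pattern by their medians. The median change of the translation list was -0.10 in embryos at 31.5°C against 0.45 and 0.60 in those at 27.5 and 29.0°C, with 5 of 10 clones below both other changes and none above. For electron transport and ATP synthase the medians were -0.26, 0.44 and 0.30, with 5 of 13 below both and none above. The ATP synthase lipid-binding clone AOSC391 fell by 0.41 at 31.5°C, the unstable call above, and rose by 1.30 at 27.5°C and 1.32 at 29.0°C. The clone thus differed by -1.71 and -1.73 against a limit of 0.56. Its mean at 12 hours was higher at 31.5°C (-0.59) than at 27.5 and 29.0°C (-1.17 and -1.45) and at 48 hours lower (-1.01 against 0.14 and -0.13). Calmodulin (AOSF573), the calcium sensor of most signalling in cells, did not change beyond its limit of 0.33 at 31.5°C: it was at -1.25, -1.28 and -1.28 and then -1.41, -1.38 and -1.30, and it rose by 1.39 and 1.17 at 27.5 and 29.0°C. The hinge protein and NHP2-like protein 1 fell at 31.5°C, by 1.49 and 1.18, but were called in neither direction at 27.5 (-0.45 and -0.06) or 29.0°C (-0.29 and 0.01).

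Some cell division and chromatin clones fell at the lower temperatures and fell less or were not called at 31.5°C. In each of these lists the change at 31.5°C was above both others for 3 of 8 clones and below both for 1, and UHRF1 belongs to both lists. In the order 31.5, 27.5 and 29.0°C, the median change of the cell division list was -0.05, -0.89 and -1.07, and 2, 5 and 7 of its 8 clones fell. INCENP fell by 0.89 and 1.09 at 27.5 and 29.0°C, DNA polymerase epsilon subunit 3 by 0.89 and 1.05, and UHRF1, also on the chromatin list, by 0.90 and 1.11. None of these 3 was called at 31.5°C. The change at 31.5°C exceeded both others for INCENP and UHRF1 and exceeded that at 29.0°C alone for DNA polymerase epsilon. Ran-1 was the 1 member below both others, with changes of -1.92 at 31.5°C against -1.28 and -1.32. Disks large-associated protein 5 also fell by more than at 27.5°C, at -1.49 against -0.89, and did not differ beyond its limit of 0.43 from the -1.88 at 29.0°C.

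The histones and chromatin list had medians of -0.08, -0.91 and -1.17 at 31.5, 27.5 and 29.0°C. Its members differed among themselves. Linker histone H1.0 changed by -0.86 at 31.5°C and by -2.19 and -2.25 at 27.5 and 29.0°C, as it started lower (0.79 against 1.21 and 1.66) and ended higher (-0.07 against -0.98 and -0.59). Histone H2A.V changed by -3.40 at 31.5°C, against -1.59 at 27.5°C and -2.51 at 29.0°C, and differed from both beyond the limit of 0.49. The fall of H3.3 did not differ from either beyond its limit of 0.35.

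**Figure D5:**
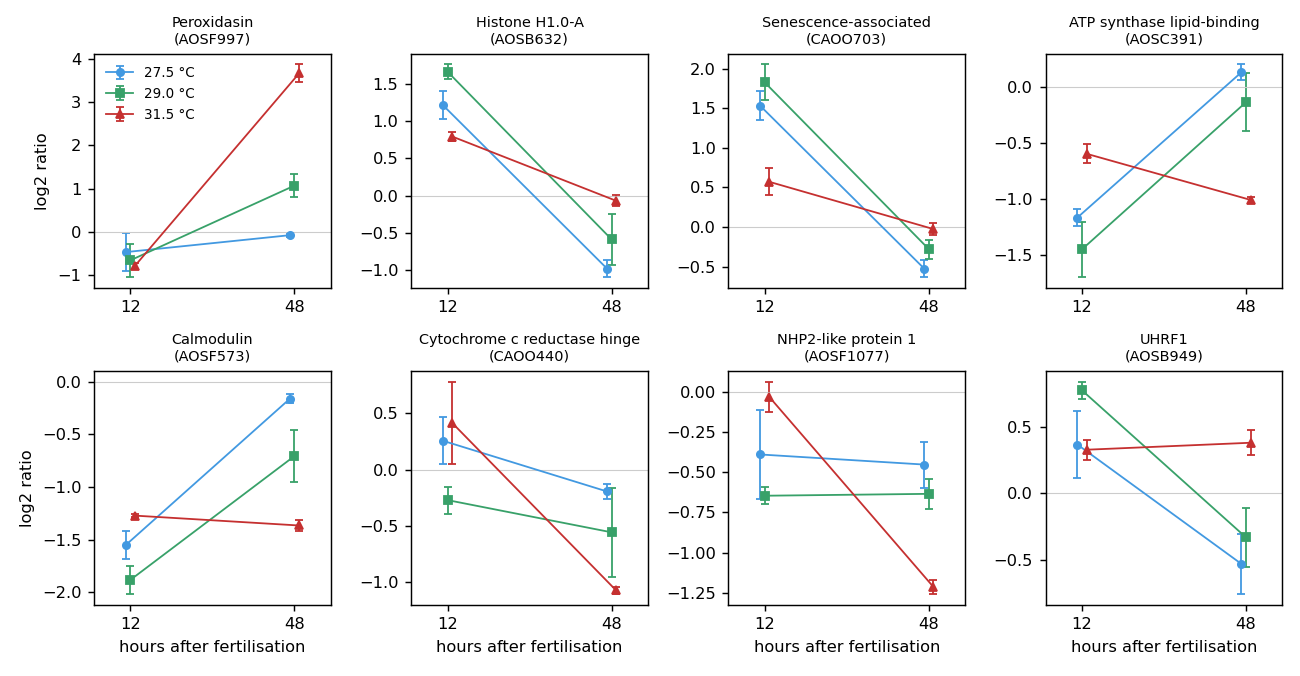
Mean log2 ratio at 12 and 48 hours after fertilisation for 8 clones at 27.5, 29.0 and 31.5°C, with error bars of 1 SD over the technical arrays of a condition. Peroxidasin ends far higher at 31.5°C (3.66), H1.0, the senescence-associated clone and UHRF1 fall less or not at all there, and the ATP synthase lipid-binding and calmodulin clones do not rise as they do at 27.5 and 29.0°C.

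Some further clones also fell less at 31.5°C than at both other temperatures. The senescence-associated clone CAOO703 fell by 0.60, from 0.40, 0.57 and 0.74 to -0.11, 0.00 and 0.03, and by 2.05 and 2.10 at 27.5 and 29.0°C. Methionine sulfoxide reductase changed by -1.51 at 31.5°C against -2.62 and -2.30. For the response to stress list the medians were -0.29, -0.76 and -0.76, and 3 of 14 clones were above both other changes and 1 below. Those above were CAOO703 and, named after their values were seen, the mitochondrial chaperonin Cpn60 (AOSF528, -0.81 against -1.21 and -1.20) and the chromatin regulator ATRX (AOSB947, -0.21 against -0.91 and -1.23). The clone below both was sequestosome-1, at -1.23 against -0.71 and -0.66.

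Larger falls at 31.5°C than at both other temperatures were found for Piwi-like protein 4 (-2.17 against -1.24 at 27.5°C and -1.41 at 29.0°C), the matrix protein AOSB1012 (-2.07 against -1.14 and -1.27), the serpin (3.99-fold, with log2 changes of -0.96 and -1.47 elsewhere) and the spliceosomal p14 (-1.25 against -0.78 and -0.56). The proteasome subunit rpn1 (-0.95 against -0.41 and -0.54) and NADH-ubiquinone oxidoreductase 7 (-1.06 against -0.47 and -0.51) did likewise. Rises at 31.5°C that exceeded both other changes, where neither was a rise, were those of the reverse transcriptase AOSF1088 (0.92 against -0.07 and 0.16), glyoxylate reductase (0.57 against -0.09 and -0.41) and the unstable call of the E2 S enzyme (0.59 against -0.47 and -0.78). SCRiP8 changed by -0.53 and was not called elsewhere, at -0.04 and 0.13. Among clones without annotation, AOSF731 fell by 0.37 but rose by 1.39 and 1.80 at 27.5 and 29.0°C, a call at 31.5°C that was lost without each of 5 of the 6 arrays. AOSF712 changed by 0.73 at 31.5°C, within its limit of 0.98, and by -0.88 and -1.02.

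Counted over all clones with values at every temperature, 36 rose at 31.5°C without being called higher at 27.5 or 29.0°C, and for 7 of them the change also differed from both. Falls of this kind numbered 34, of which 16 differed from both. Conversely, 75 clones rose at both lower temperatures and were not called at 31.5°C, 33 of them with a change below both. Of 67 clones that fell at both lower temperatures and were not called at 31.5°C, 24 had a change above both.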

How the data were processed

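The study measured RNA of whole embryos on 18 two-colour cDNA arrays, 3 technical arrays for each of 3 temperatures and 2 time points. The deposited scanner files hold the intensity of each spot in both channels, after background subtraction by the authors' software (TIGR Spotfinder), by grid position and without clone names. The deposited table holds 1 log2 ratio (Cy5 over Cy3) per clone and array, which the authors normalized by print-tip LOWESS. How duplicate spots were combined is not given in the sources used here. Quantiles of the table lay closer to Cy5 over Cy3 of the loess-normalized spots than to the inverse on the 6 arrays at 31.5°C. At 27.5°C after 12 hours, replicate 3 lay slightly closer to the inverse (root mean square difference 0.0787 against 0.0805). The labels give the same dyes on every array.

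The table was used without further normalization. A linear model of the 6 conditions per clone gave 1 residual spread (up to 12 degrees of freedom) and a 95% interval per mean. Non-overlap of intervals is the study's criterion, but its intervals were Bayesian credible intervals from BAGEL, so calls can differ. Arrays were averaged per RNA isolation for limma 3.58.1 (R 4.3.3, Benjamini-Hochberg threshold 0.05), the only source of p-values. Both were run on simulated data with noise alike for all clones. The simulated arrays for the intervals had no spread between cultures, and the simulated limma samples had no difference between temperatures. The comparison and its lists were chosen with earlier results of these data known. Named clones were the 12 largest annotated rises and falls with arrays apart, the 3 largest without annotation, the leading members of each list up to 4, the 4 annotated and 2 other clones differing most from both other temperatures, and those the article names, 99 in all. Clones that mark the stage were listed separately. Alternatives were centring, scaling, filters on arrays, a replicate block, leaving out arrays, other spreads, linear ratios, limma over arrays with and without weights, and spots from the scanner files. No clone sequences were used here.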

Additional observations from a re-analysis of the deposited data

Results flagged for a closer look

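The change from 12 to 48 hours differed between 31.5°C and another temperature for 235 clones against 27.5°C and 240 against 29.0°C, by intervals of the changes that did not overlap, and among the named clones the following differed from both. Each pair of values is the change at 31.5°C minus that at 27.5°C and then minus that at 29.0°C, on the log2 scale.

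The largest excess at 31.5°C was that of peroxidasin (AOSF997), 4.05 and 2.72. Positive differences were also found for AOSF712 (1.62 and 1.75), the senescence-associated clone CAOO703 (1.46 and 1.51), histone H1.0 (AOSB632, 1.33 and 1.39), methionine sulfoxide reductase (AOSC865, 1.11 and 0.78), the E2 S enzyme (AOSB1028, 1.06 and 1.37), the reverse transcriptase AOSF1088 (0.99 and 0.76) and glyoxylate reductase (AOSB445, 0.66 and 0.98).

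Negative differences were largest for histone H2A.V (AOSF622, -1.81 and -0.89), AOSF731 (-1.76 and -2.17), the ATP synthase lipid-binding clone AOSC391 (-1.71 and -1.73) and calmodulin (AOSF573, -1.48 and -1.27). NHP2-like protein 1 (AOSF1077) gave -1.12 and -1.19, the serpin (AOSF1053) -1.04 and -0.53 and the complex III hinge protein (CAOO440) -1.04 and -1.21. The matrix protein AOSB1012 gave -0.93 and -0.80, Piwi-like protein 4 (AOSF1434) -0.92 and -0.76 and the ATP synthase f chain (AOSC720) -0.70 and -0.78. Among ribosomal proteins the values were -0.93 and -1.41 for L18 (AOSC1063), -0.87 and -1.08 for L15 (CAOO1045) and -0.59 and -1.36 for S14 (AOSF1155).

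Smaller negative differences were those of ran-1 (AOSF912, -0.64 and -0.60), Sec61 gamma (AOSF1278, -0.59 and -0.49), NADH-ubiquinone oxidoreductase 7 (CAON943, -0.58 and -0.55), rpn1 (AOSC1104, -0.54 and -0.41), sequestosome-1 (AOSF1075, -0.52 and -0.57), the translocon-associated protein (AOSF1300, -0.50 and -0.77), SCRiP8 (AOSF810, -0.49 and -0.66) and p14 (AOSF1016, -0.47 and -0.69). These intervals hold hybridisation error of 1 RNA isolation per condition.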

How the results depend on the processing

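The count of 414 clones was 357 to 411 when 1 of the 6 arrays at a time was left out, and the 150 clones past 2-fold were 140 to 167. The differences from 27.5°C (235) were 182 to 255 and those from 29.0°C (240) 187 to 227 without 1 array. Replicate numbers do not pair the arrays, since deviations of same-numbered arrays correlated at -0.05 to -0.01, and with a replicate block the counts were 410, 235 and 236. Centring or scaling of the arrays and the filter on all 3 arrays kept these 4 counts within 1.5 times. The spread of both conditions alone (417), linear ratios (385) and limma over the arrays (495) were run for the 414 only and kept it within 1.5 times. limma with array weights, chosen after seeing the data, called 689 clones (372 higher, 317 lower), including 413 of the 414, with replicate 1 of 12 hours at a weight of 0.133. Unnamed spots, of which more entered, gave 767 of 2836 called after print-tip loess (425 higher), 732 of 2268 without the dimmest 20% (409 higher) and 811 after median centring (567 higher, 244 lower), so that rises were 69.9% of calls against 58.9% in the table. For a change common to the temperatures, the 417 clones in limma were 224 without the 27.5°C samples and 227 without those of 29.0°C, but 601 (295 higher, 306 lower) without those of 31.5°C. The residual error of that test is the difference in change between the temperatures kept. Across clones the changes at 27.5 and 29.0°C correlated at 0.898, and the change at 31.5°C correlated at 0.717 and 0.763 with them. How much of the shift in these counts comes from that error was not tested. Of the 99 named clones, 79 kept their call, or their lack of 1, in each of the 12 alternatives run for single clones. In at least 1 alternative 14 lost and 6 gained a call. Direction was compared only for clones called in the main setting, and none of these changed it. Many of the 99 were named for large changes on these same arrays, so these counts do not describe the 414 calls. Linear ratios, array weights and the unnamed spots were not run for single clones. With 1 RNA isolation per condition, no setting measures the spread between cultures.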
